A study of Rattus norvegicus with 24 samples.

Results

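The type 2 deiodinase Dio2, the glucocorticoid-regenerating enzyme Hsd11b1, the cell surface protein Pvr, the beta-tubulins Tubb6 and Tubb2b and the caspase-8 regulator Cflar are 6 genes whose transcripts stood higher in rats with levodopa-induced dyskinesia than in rats without it, in the striatum and in the substantia nigra alike. They were selected on that difference, chosen by the values of the dyskinetic and non-dyskinetic arrays themselves, so those values are given below as a description, with no test. On the array, 44 of 213067 probe sets named 1 of these genes alone, and they gave 6 of 16582 genes with a value. Each gene's level is the mean over its probe sets on a log2 scale, where a difference of 1 is a doubling. Dio2 had 2 probe sets, Hsd11b1 11, Pvr 9, Tubb6 4, Tubb2b 4 and Cflar 14.

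The 24 arrays came from 14 male Sprague Dawley rats described as adult, 10 of which gave both tissues, and each tissue had 3 arrays for each of 4 conditions. Rats of the dyskinetic and of the non-dyskinetic group had 6-hydroxydopamine, a toxin that kills dopamine neurons, injected on 1 side of the brain and then daily levodopa, the precursor of dopamine, and were told apart by their ratings for abnormal involuntary movements. Lesioned vehicle rats had the toxin and no levodopa. Intact rats had injections without the toxin, and levodopa. Drug or saline was begun 3.5 weeks after surgery, a lesion was accepted at a striatal dopamine loss above 90%, and movements were rated in 7 sessions. The punches measured 2 by 2 mm in the lateral striatum and 0.5 by 1.5 mm in the nigra, and only RNA with an integrity number of at least 7 was used. The levodopa dose, the side punched and the time from the last dose to death are not given in the sources used here. In bulk tissue, more cells of a type and more RNA per cell cannot be told apart. The labels call the replicates biological, and each array of a group came from a different rat.

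As background, Dio2 turns the thyroid prohormone thyroxine into the active hormone triiodothyronine inside cells, and in rodent brain it is found mainly in astrocytes and tanycytes. Hsd11b1 makes active corticosterone from its inert keto form in the endoplasmic reticulum, with cofactor supplied by H6pd. Both enzymes set the amount of a hormone within a tissue apart from its level in blood. Pvr, also called CD155 or nectin-like molecule, is an adhesion protein of the nectin family that binds vitronectin and, in human and mouse, the immune receptors Cd226 and Tigit. Tubb6 and Tubb2b are beta-tubulin isotypes, building blocks of microtubules. Tubb2b is abundant in developing neurons. Cflar, known as c-FLIP, binds Fadd and Casp8 at death receptors and holds back the activation of that caspase.

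The striatal punches were rich in markers of projection neurons, with a mean level of 11.53 to 11.69 over 9 markers on all 12 arrays, and the lesion was visible in the nigra, where Th, which makes the precursor of dopamine, read 13.38 to 13.50 in intact, 10.21 to 11.30 in lesioned vehicle, 12.005 to 12.45 in non-dyskinetic and 10.86 to 12.22 in dyskinetic arrays. Array medians ran from 7.90 to 7.98 in striatum and from 8.21 to 8.32 in nigra, so no level was set against one of the other tissue. Mean correlations of an array with the others of its tissue were 0.982 to 0.990 in striatum and 0.976 to 0.988 in nigra. The lowest belonged to nigral vehicle array 3, which also had the highest nigral levels of meningeal markers (9.36, against 8.01 and 8.19 in the other vehicle arrays) and of cortical neuron markers (7.56, against 6.22 and 6.17). Nigral vehicle array 1 had the highest nigral level of striatal projection neuron markers (9.37, against 8.24 and 8.08). For the 6 genes, nigral comparisons with vehicle rats are given below with and without these 2 arrays, and for other genes the counts of their lists or the calls lost are.

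RefSeq promoter sequences of rat assembly GRCr8, from 250 bases before to 50 bases after the listed start, were matched by symbol for 5 of the 6 genes. Hsd11b1 was not matched. The promoters were searched on both strands for 6 short motifs, and the 3 that held a match are shown 5′ to 3′ on the gene's strand, with the matched letters in capitals. The shown windows are chr6:115410545-115410844 on the minus strand for Dio2, chr1:88704592-88704891 on the minus strand for Pvr and chr17:30952836-30953135 on the plus strand for Tubb2b.
Dio2: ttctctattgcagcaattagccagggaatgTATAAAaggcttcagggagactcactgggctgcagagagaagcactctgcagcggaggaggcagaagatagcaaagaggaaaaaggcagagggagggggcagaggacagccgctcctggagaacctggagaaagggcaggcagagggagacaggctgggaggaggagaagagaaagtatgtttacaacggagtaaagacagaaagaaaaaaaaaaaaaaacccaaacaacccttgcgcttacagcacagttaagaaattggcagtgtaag
Pvr: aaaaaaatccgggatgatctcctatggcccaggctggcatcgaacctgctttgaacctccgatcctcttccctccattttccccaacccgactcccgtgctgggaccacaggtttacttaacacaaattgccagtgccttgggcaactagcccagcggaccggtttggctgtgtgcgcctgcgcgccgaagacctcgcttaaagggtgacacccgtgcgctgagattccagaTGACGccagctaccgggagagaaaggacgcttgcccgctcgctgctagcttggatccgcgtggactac
Tubb2b: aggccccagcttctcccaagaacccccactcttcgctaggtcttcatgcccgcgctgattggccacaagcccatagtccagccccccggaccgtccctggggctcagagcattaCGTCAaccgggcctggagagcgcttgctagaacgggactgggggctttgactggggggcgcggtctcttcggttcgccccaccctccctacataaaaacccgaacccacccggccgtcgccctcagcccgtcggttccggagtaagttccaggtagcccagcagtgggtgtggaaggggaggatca
The capitals in Dio2 are the TATA box letters TATAAA, which begin at position -220 from the listed start and occur in 14.2% of 33469 rat promoters of this length. Those in Pvr and Tubb2b are TGACG, the core of the cAMP response element, at position -18 on the gene's strand of Pvr and at position -136 on the opposite strand of Tubb2b, where the line shows its reverse complement. This core is found in 21.2% of promoters and is contained in the full element TGACGTCA (1.83%), which none of the 5 promoters held. Nor did any hold an AP-1 site (TGACTCA or TGAGTCA, 4.63%), the glucocorticoid receptor motif AGAACA (20.7%) or the thyroid hormone receptor motif AGGTCA (16.2%). Tubb6 and Cflar had no match to any of the 6 motifs. The Cflar window, chr9:67679299-67679598 on the plus strand, was set on another start than the gene start 67679502 given below. A match describes letters in this window and no more.

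Dio2 and Hsd11b1, the hormone-activating enzymes, read alike in the striatum: their levels in dyskinetic rats overlapped those of intact rats, and the other lesioned rats lay below both. Dio2 (gene at chr6:115396308-115410594, GRCr8) read 7.11, 6.82 and 7.09 in the dyskinetic, 6.41, 6.46 and 6.35 in the non-dyskinetic, 6.54, 6.45 and 6.59 in the lesioned vehicle and 6.60, 6.83 and 7.14 in the intact striatal arrays. Dyskinetic and intact arrays overlapped, and every array of both groups lay above every lesioned vehicle and non-dyskinetic array, with little room between the lowest intact and the highest vehicle array. The dyskinetic mean exceeded the non-dyskinetic mean by 0.60 ± 0.12 (difference ± standard error, n = 3 against 3), 1.51-fold, and the intact mean by 0.15 ± 0.12.

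In the nigra Dio2 read 7.73, 7.67 and 7.90 in dyskinetic, 6.90, 6.89 and 7.16 in non-dyskinetic, 6.90, 7.02 and 6.72 in vehicle and 7.20, 6.89 and 7.26 in intact arrays. Here the dyskinetic arrays stood above all 9 others, which overlapped one another from group to group. The difference from non-dyskinetic rats was 0.78 ± 0.11, 1.72-fold, and that from intact rats 0.65 ± 0.11. The order of the group means was dyskinetic, intact, non-dyskinetic and vehicle, and the last 3 did not differ from their neighbours by more than the larger standard deviation. Both Dio2 probe sets showed the higher dyskinetic level in each tissue, with differences of 0.54 and 0.66 in striatum and 0.71 and 0.84 in nigra.

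Hsd11b1 (chr13:107277526-107327462) read 8.19, 8.40 and 7.93 in dyskinetic, 7.68, 7.73 and 7.41 in non-dyskinetic, 7.58, 7.83 and 7.83 in vehicle and 7.98, 8.08 and 8.28 in intact striatum. As for Dio2, the dyskinetic and intact arrays overlapped and both groups lay above the other groups. The dyskinetic mean was 0.57 ± 0.12 above the non-dyskinetic, 1.48-fold, and 0.062 ± 0.12 above the intact mean. In the nigra its arrays read 9.08, 9.05 and 9.08 in dyskinetic, 8.41, 8.56 and 8.44 in non-dyskinetic, 8.23, 8.35 and 8.16 in vehicle and 8.29, 8.22 and 8.48 in intact rats. The dyskinetic arrays were tightly grouped (SD 0.015) and above all others. Hsd11b1 in the nigra was also the member whose non-dyskinetic arrays stood above all vehicle arrays, by 0.22 ± 0.078 between means, a separation that 5.49% of genes tested showed in the same direction. It was 0.22 without vehicle array 1 and 0.18 without vehicle array 3, and the arrays were separate both times.

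Of the 11 Hsd11b1 probe sets 10 were higher in dyskinetic than non-dyskinetic rats in each tissue, with a median difference of 0.65 in both. The exceptions were different probe sets. One stood at a mean of 4.43 in striatum, where it differed by -0.12, and the other differed by 0.27 in striatum and by -0.14 in nigra.

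Of the 6 genes Pvr had the largest difference in the striatum, and its other groups overlapped. It is listed on the array as PVR (gene at chr1:88689235-88704641). In the striatum it read 9.01, 9.15 and 8.89 in dyskinetic, 7.92, 7.48 and 7.55 in non-dyskinetic, 7.36, 7.57 and 7.65 in vehicle and 7.54, 7.66 and 7.54 in intact arrays. The dyskinetic arrays lay far above all 9 others. The difference from non-dyskinetic rats was 1.37 ± 0.11, 2.58-fold, from vehicle rats 1.49 ± 0.11 and from intact rats 1.44 ± 0.11.

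In the nigra Pvr read 8.62, 8.68 and 8.70 in dyskinetic, 7.72, 7.88 and 7.90 in non-dyskinetic, 7.70, 7.97 and 7.87 in vehicle and 7.67, 7.998 and 8.04 in intact arrays. Again the dyskinetic arrays stood apart, by 0.83 ± 0.10 from non-dyskinetic rats, 1.78-fold. All 9 Pvr probe sets had every dyskinetic array above every non-dyskinetic array in both tissues, with differences of 0.70 to 1.84 in striatum and 0.49 to 1.26 in nigra.

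**Figure D1:**
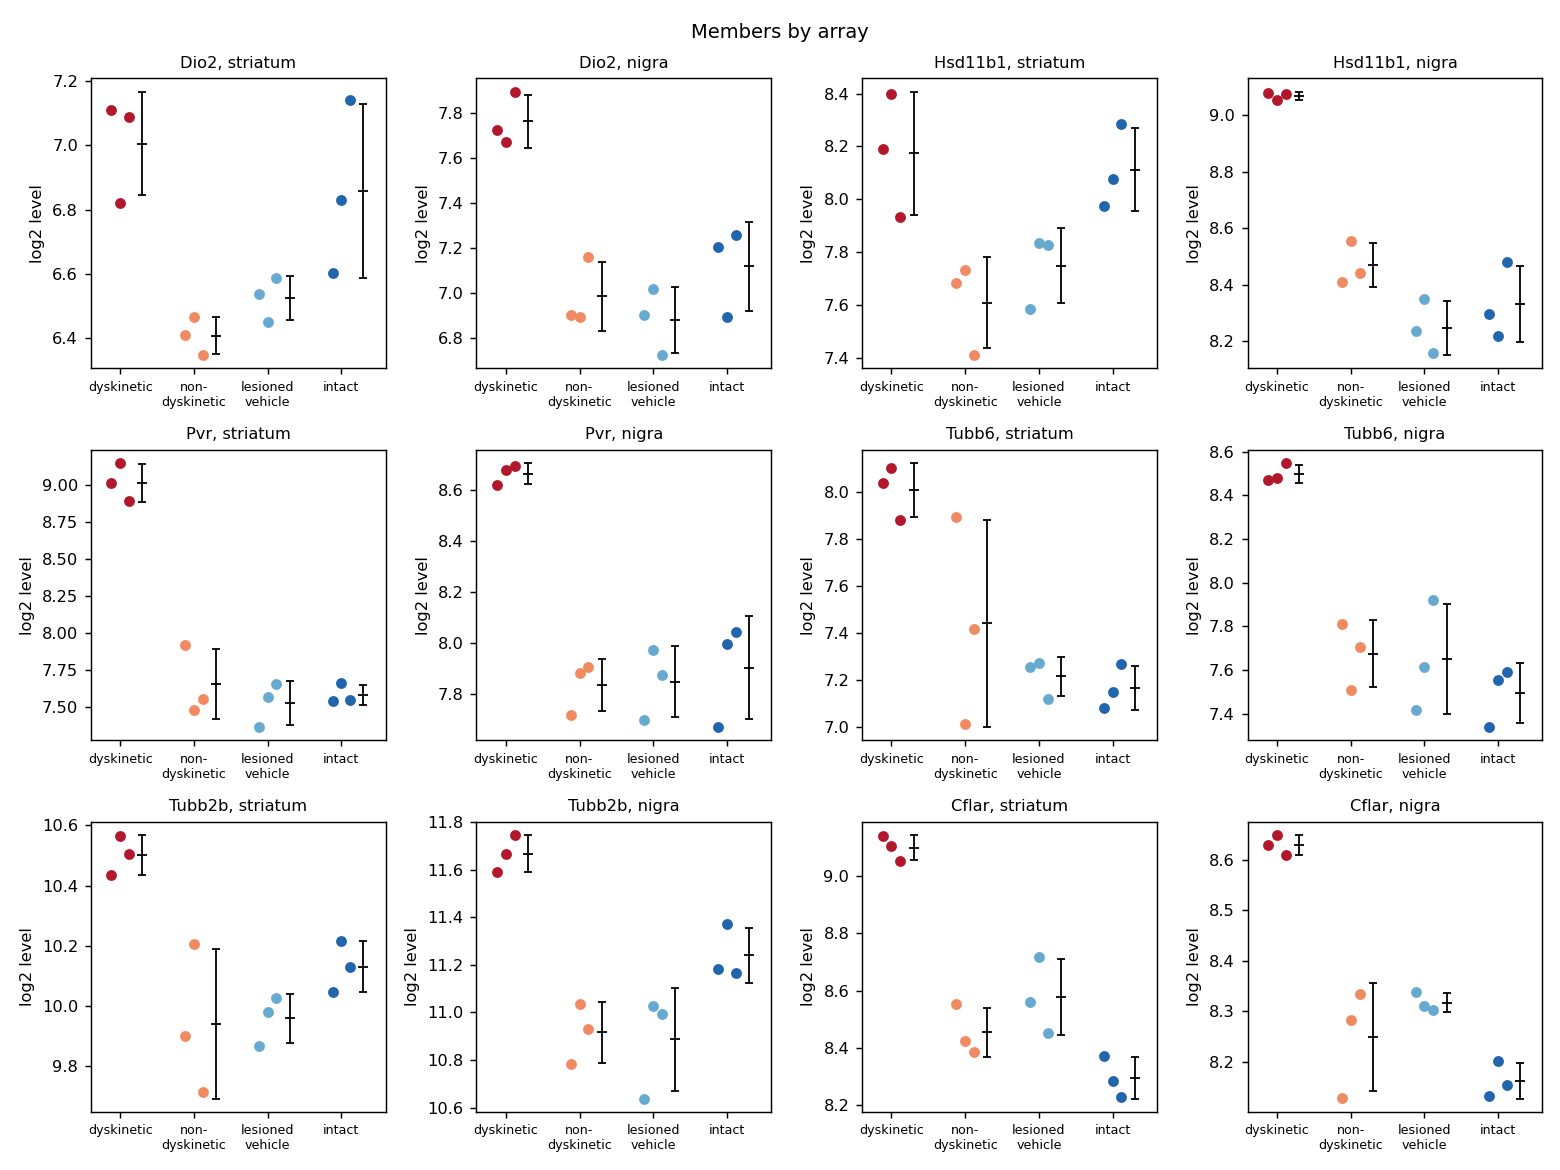
Log2 level of the 6 genes on each array (points, 3 per group) with the group mean ± SD (black), by condition, in striatum and nigra; each panel has its own vertical range. In the striatum the intact arrays of Dio2 and Hsd11b1 reach the dyskinetic ones, while in the nigra the dyskinetic arrays of all 6 genes lie above every other array.

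The tubulins Tubb6 and Tubb2b were both higher in dyskinetic rats, and they differed in the other groups. Tubb6 (chr18:63213287-63222926) read 8.04, 8.10 and 7.88 in dyskinetic, 7.89, 7.01 and 7.42 in non-dyskinetic, 7.25, 7.27 and 7.12 in vehicle and 7.08, 7.15 and 7.27 in intact striatum. Non-dyskinetic array 1 lay just above the lowest dyskinetic array, so these groups overlapped, and their spread was uneven (SD 0.44 against 0.11). The difference of 0.57 ± 0.15, 1.48-fold, was 0.35 without non-dyskinetic array 2 and 0.79 without non-dyskinetic array 1.

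In the nigra Tubb6 read 8.47, 8.48 and 8.55 in dyskinetic, 7.81, 7.51 and 7.71 in non-dyskinetic, 7.42, 7.61 and 7.92 in vehicle and 7.34, 7.55 and 7.59 in intact arrays. The dyskinetic arrays lay above all others, by 0.82 ± 0.12 from non-dyskinetic and 1.00 ± 0.12 from intact means, and the other groups overlapped. Of its 4 probe sets all were higher in dyskinetic rats in both tissues, but the arrays were fully separate for 1 in striatum and for 4 in nigra.

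Tubb2b (chr17:30953086-30956133) read 10.43, 10.57 and 10.50 in dyskinetic, 9.90, 10.21 and 9.72 in non-dyskinetic, 9.87, 9.98 and 10.03 in vehicle and 10.05, 10.22 and 10.13 in intact striatum. In the nigra it read 11.59, 11.67 and 11.74 in dyskinetic, 10.78, 11.04 and 10.93 in non-dyskinetic, 10.64, 11.03 and 10.99 in vehicle and 11.18, 11.37 and 11.17 in intact arrays. In both tissues the dyskinetic arrays were highest and the intact mean came second. Intact arrays lay above all vehicle arrays in both tissues and above all non-dyskinetic arrays in the nigra. Dyskinetic exceeded non-dyskinetic means by 0.56 ± 0.10 in striatum, 1.47-fold, and by 0.75 ± 0.11 in nigra, 1.68-fold. All 4 probe sets of Tubb2b had separate groups in both tissues. The gene table lists Tubb2b also as a former name of Tubb2a, a closely related gene with probe sets of its own, so signal shared between them is possible and was not tested. Tubb2a itself stood 0.22 ± 0.074 (adjusted p = 0.10, limma) higher in dyskinetic striatum and 0.10 ± 0.073 (adjusted p = 0.56, limma) higher in dyskinetic nigra.

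Cflar (chr9:67679502-67747226) was higher in dyskinetic rats and had its lowest group mean in intact rats in both tissues. It read 9.14, 9.11 and 9.05 in dyskinetic, 8.55, 8.43 and 8.38 in non-dyskinetic, 8.56, 8.72 and 8.45 in vehicle and 8.37, 8.28 and 8.23 in intact striatum. In the nigra it read 8.63, 8.65 and 8.61 in dyskinetic, 8.13, 8.28 and 8.33 in non-dyskinetic, 8.34, 8.31 and 8.30 in vehicle and 8.13, 8.20 and 8.15 in intact arrays. The dyskinetic arrays lay above all others in both tissues, and vehicle and non-dyskinetic arrays overlapped. The difference between dyskinetic and non-dyskinetic rats was 0.65 ± 0.081 in striatum, 1.56-fold, and 0.38 ± 0.063 in nigra, 1.30-fold. Whether it differed between the tissues was not tested.

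The 14 Cflar probe sets were unlike one another in the striatum, where dyskinetic minus non-dyskinetic differences ran from -0.030 to 1.44 (median 0.61). With the median in place of the mean over probe sets, the striatal difference was 0.45. The 6 probe sets numbered in sequence from 10923583 to 10923588, picked after their values were seen, differed by 0.80 to 1.44 and held the largest excess of vehicle over intact rats in the striatum, 0.37 to 0.89. Probe set 10923589, next in number, differed by 0.41 between dyskinetic and non-dyskinetic rats and by -0.39 between vehicle and intact rats. In the nigra the range over the 14 was -0.022 to 0.66. The exons that the probe sets lie in are not given in the sources used here.

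Over all 44 probe sets of the 6 genes, 42 were higher in dyskinetic than in non-dyskinetic rats in the striatum and 42 in the nigra, where 42.6% and 43.2% of all probe sets naming 1 gene were. The arrays were fully separate for 34 and 36 of them, against 6% and 6.06% of all probe sets. By gene, the arrays were separate for 5 of 6 in striatum (8.66% of all genes) and 6 of 6 in nigra (7.94%). These counts come from the contrast that chose the genes and add no evidence to it. In all, 381 of 12436 genes tested (3.06%) were higher in dyskinetic striatum and 21 (0.169%) in dyskinetic nigra at an adjusted p under 0.05 in limma, and 12 of the 12114 genes tested in both (0.0991%) were in both tissues. The 6 genes, chosen on this same contrast, are among these 12, beside Arc, Bcl6b, Junb, Adgrl4, Tmem88 and Kcne5. Without dyskinetic array 1 the nigral count was 0 in either direction, so none of the 12 then passed. Just inside the adjusted p threshold in both tissues stood Tubb6, with differences of 0.57 in striatum and 0.82 in nigra. Just outside it stood Egr1 (0.49 and 1.26) and Fos (1.15 and 0.80).

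**Figure D2:**
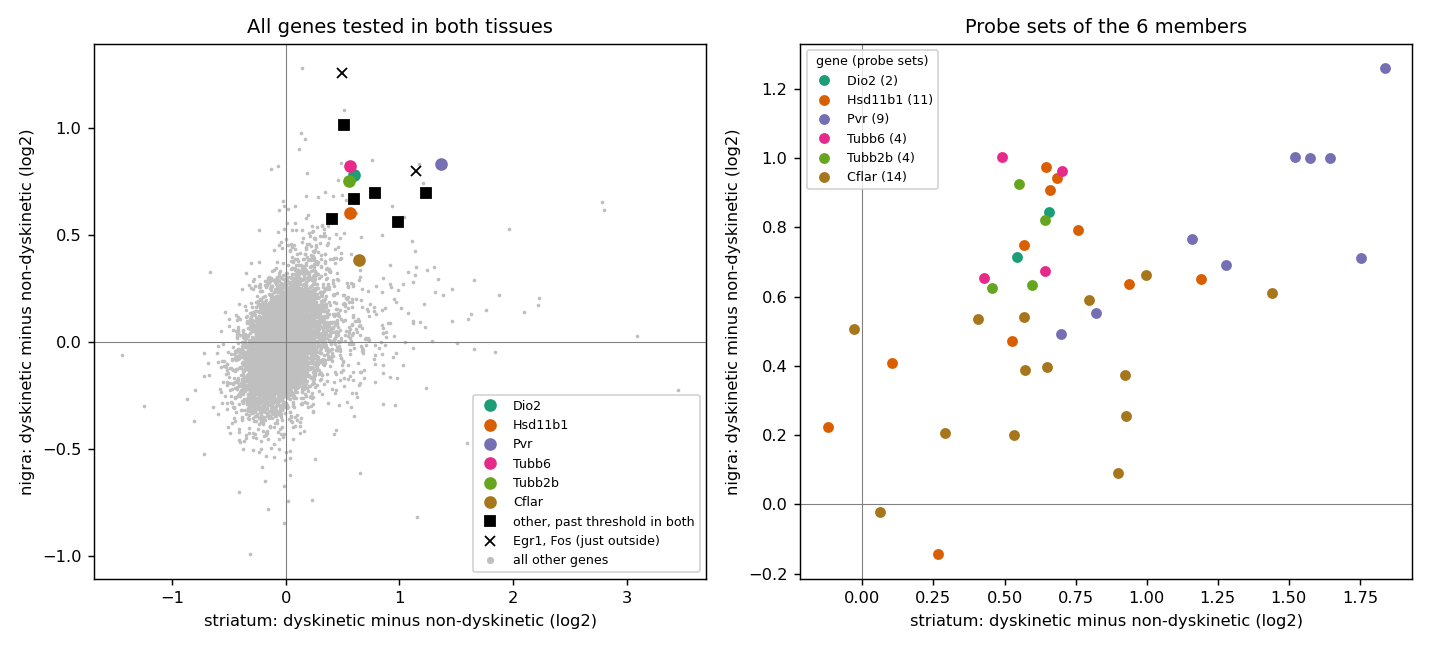
Dyskinetic minus non-dyskinetic log2 difference in striatum (horizontal) and nigra (vertical), for all 12114 genes tested in both tissues (left) and for the 44 probe sets of the 6 genes (right). The 6 genes lie at 0.56 to 1.37 in striatum and 0.38 to 0.83 in nigra, the range that chose them, and the Cflar probe sets spread from -0.030 to 1.44 in striatum.

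Compared with lesioned vehicle rats, every dyskinetic array lay above every vehicle array for 6 of the 6 genes in each tissue, which 10.2% of genes showed in striatum and 10.2% in nigra. Since these arrays are those that chose the genes, no test is given. Dyskinetic minus vehicle differences ran from 0.43 ± 0.12 (Hsd11b1) to 1.49 ± 0.11 (Pvr) in striatum and from 0.31 ± 0.063 (Cflar) to 0.88 ± 0.11 (Dio2) in nigra. In the nigra the range was 0.32 to 0.89 without vehicle array 1 and 0.31 to 0.98 without vehicle array 3, with separate arrays for 6 of 6 genes both times. Against the intact rats, which also received levodopa, 4 of 6 genes were separate in striatum, all but Dio2 and Hsd11b1 (background 12.7%), and 6 of 6 in nigra (background 16.4%).

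Non-dyskinetic arrays, from rats with the same toxin and drug, overlapped vehicle arrays for the 6 genes in both tissues, except for Hsd11b1 in nigra. There every non-dyskinetic array lay above every vehicle array. Non-dyskinetic arrays also chose the genes, so nothing is read from the overlap or from the shares of all genes in this paragraph. Non-dyskinetic minus vehicle differences ran from -0.14 ± 0.12 (Hsd11b1) to 0.22 ± 0.15 (Tubb6) in striatum and from -0.068 ± 0.063 (Cflar) to 0.22 ± 0.078 (Hsd11b1) in nigra. Without nigral vehicle array 1 the nigral range was -0.095 to 0.22, with Tubb6 and Tubb2b below 0, and without array 3 it was -0.076 to 0.18. In the striatum non-dyskinetic arrays overlapped vehicle arrays for 6 of 6 genes, where 6.51% of all genes were separate upward. They lay below all intact arrays for Dio2 (-0.45 ± 0.12) and Hsd11b1 (-0.50 ± 0.12), a separation that 6.79% of genes showed, and above them for Cflar (0.16 ± 0.081, 7.7% of genes). In the nigra they lay below all intact arrays for Tubb2b (-0.32 ± 0.11, 14.3% of genes). Taking dyskinetic and non-dyskinetic rats together, their average exceeded the vehicle mean for all 6 genes in both tissues. The excess ran from 0.14 ± 0.11 (Hsd11b1) to 0.80 ± 0.097 (Pvr) in striatum and from 0.12 ± 0.054 (Cflar) to 0.52 ± 0.067 (Hsd11b1) in nigra. That average holds the dyskinetic arrays, and it too is given without a test. Without nigral vehicle array 1 the nigral Hsd11b1 value was 0.52, and without nigral vehicle array 3 it was 0.48, below the 0.57 of Tubb6.

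**Figure D3:**
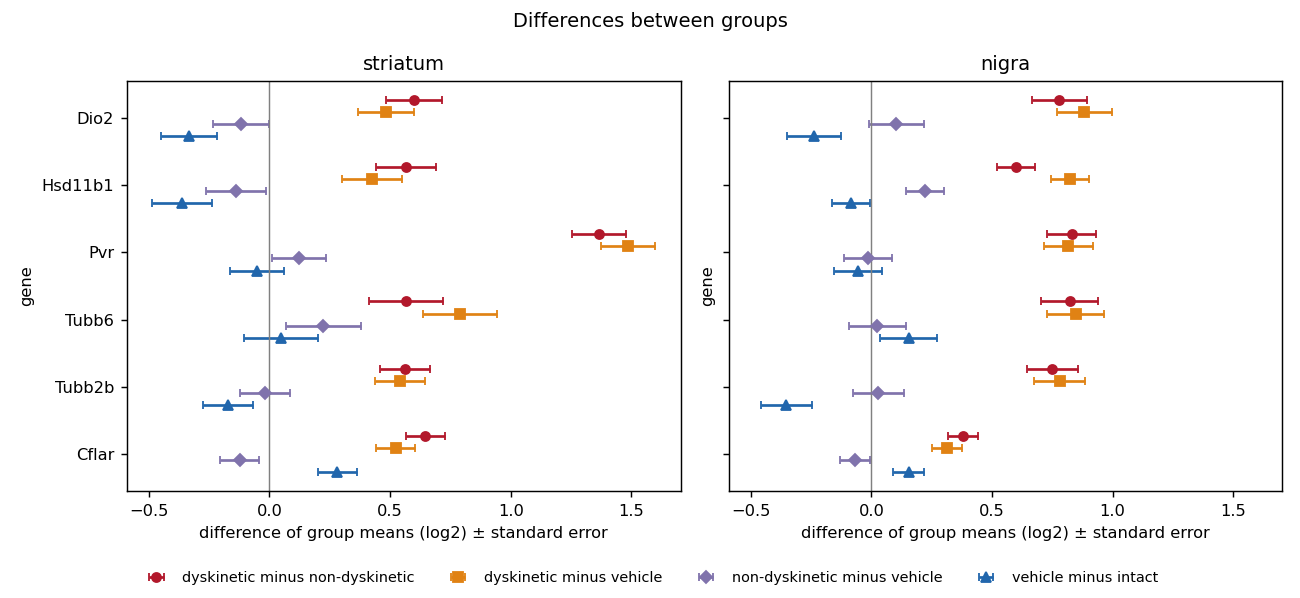
Differences between group means (log2, points) with the standard error of the limma fit (bars) for the 6 genes in striatum and nigra. Non-dyskinetic minus vehicle values lie between -0.14 and 0.22, whereas dyskinetic minus vehicle values lie between 0.31 and 1.49.

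The means of lesioned vehicle and intact rats hold none of the arrays that chose the genes, and their difference was tested. The spread behind each standard error and p was estimated over all 12 arrays of a tissue, the choosing arrays among them. The groups differ in the toxin and also in levodopa, which only the intact rats received, and the effects of these cannot be told apart. In the striatum 0 of the 6 genes passed in limma, where 55 of 12436 genes did (0.442%), and 3 of 6 had an unadjusted p under 0.05, as did 968 of all genes. Dio2 stood at -0.33 ± 0.12 (unadjusted p = 0.011, adjusted p = 0.40), Hsd11b1 at -0.36 ± 0.12 (unadjusted p = 0.010, adjusted p = 0.37) and Cflar at 0.28 ± 0.081 (unadjusted p = 0.0034, adjusted p = 0.24) by limma, in each case with vehicle and intact arrays that did not overlap. Such separation was seen in 8.96% of genes downward and 5.87% upward. The Cflar value turned to -0.025 with the median over probe sets. Weighting the arrays in limma gave 0.35, which passed (adjusted p = 0.021). Tubb2b (-0.17 ± 0.10), Pvr (-0.052 ± 0.11) and Tubb6 (0.050 ± 0.15) had adjusted p of 0.78 to 0.98 in the same fit.

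In the nigra 1 of the 6 genes passed, where 903 of 12436 (7.26%) passed as lower and 1589 in either direction (12.8%). Tubb2b was lower in vehicle than in intact nigra by 0.35 ± 0.11 on the log2 scale, -0.35 as a signed difference (adjusted p = 0.045, limma), and all 3 vehicle arrays lay below all 3 intact arrays, a separation that 17.5% of genes showed downward. Cflar arrays were separate upward, as were those of 15.3% of genes, and with array weights Cflar passed at 0.17 (adjusted p = 0.018, limma). The Tubb2b call stood close to the threshold and was lost in 11 of 20 alternative settings, among them the fit to vehicle and intact arrays alone (adjusted p = 0.10, limma). It was lost without any 1 of dyskinetic arrays 1, 2 and 3, non-dyskinetic array 3, vehicle array 1 or intact arrays 1, 2 and 3. Without vehicle array 1, the array high in striatal markers, the difference was -0.23 with an adjusted p of 0.15 in limma, and without vehicle array 3 it was -0.41 with an adjusted p of 0.046. For the other 5 genes limma's adjusted p ran from 0.12 (Cflar, 0.15 ± 0.063) to 0.76 (Pvr, -0.055 ± 0.10). The difference in this comparison between striatum and nigra passed for 0 of the 6 genes (5.72% of 12114 genes did), with no unadjusted p under 0.05, from an adjusted p of 0.30 for Hsd11b1 to 0.98 for Pvr in limma. A p above the threshold does not show that the levels or the tissues were equal.

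Across the 24 arrays, after each tissue's mean was subtracted, the 6 genes were positively correlated with one another, with Pearson's r from 0.51 (Dio2 with Cflar) to 0.90 (Pvr with Cflar). The arrays share groups, rats and the choice of genes, so this is a description. Dio2 was most like Hsd11b1 (r = 0.86), then Cd93, Robo4, Pla1a and Adgrl4. Hsd11b1 was most like Etv4 (0.89), Slc38a3, Dio2, Fads2 and Lsm6. The list for Pvr was Ptpn12 (0.93), Emd, Csrnp1, Epha2 and Fosb, and that for Cflar was Tspan31 (0.91), Ptpn12, Pvr, Fosb and Tac3. Tubb6 was nearest to Klf4 (0.92), Ccn1, Tbx3, Id1 and Fos, and Tubb2b to Slc13a5 (0.86), Fads2, Fbl, Kcnj10 and Eif5a. Over the 10 rats that gave both tissues, the deviation of a rat from its group mean in striatum and in nigra had r from -0.43 (Cflar) to 0.51 (Tubb2b), with the same sign in 3 (Tubb6) to 8 (Tubb2b) rats.

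The remaining genes of thyroid hormone activation, transport and reception did not pass with Dio2. In dyskinetic against non-dyskinetic rats 0 of 18 tested in striatum and 0 of 19 in nigra passed, where 654 (5.26%) and 30 (0.241%) of 12436 genes passed in either direction, and 2.2% and 0.0724% as lower. At an unadjusted p under 0.05 in limma there were 5 and 8 genes of the list, and 21.3% and 14.6% of all genes tested. The same shares of all genes stand beside the unadjusted counts of the other lists and markers in this comparison. The list medians were -0.090 and -0.070, beside -0.031 and -0.018 over all genes tested. The other deiodinases, Dio1 and Dio3, lay below the expression filter in both tissues, with group means of 5.41 to 5.51 for Dio1 and 5.84 to 5.88 for Dio3 in the striatum of dyskinetic and non-dyskinetic rats. Of the hormone receptors Thra stood at -0.28 ± 0.081 in striatum (adjusted p = 0.059, limma) and -0.25 ± 0.11 in nigra (adjusted p = 0.30), and Thrb at -0.029 ± 0.080 and -0.011 ± 0.089.

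Among 14 tested genes known to respond to thyroid hormone 4 were higher in dyskinetic striatum, where 3.06% of all genes were, and none lower, with a list median of 0.12. They were Itga7, an integrin subunit (0.91 ± 0.12), the morphogen Shh (0.87 ± 0.086), the early response gene Ier5 (0.72 ± 0.12) and the transcription factor Klf9 (0.38 ± 0.10), with limma's adjusted p from 3.7e-05 to 0.047. Klf9 is also a glucocorticoid target, and its call was lost in 12 of 20 alternative settings. Over the 20 settings the counts of the list ran from 2 to 4 higher and from 0 to 2 lower. Of its 14 differences 8 lay above 0, and 6 had an unadjusted p under 0.05 in limma, as had 21.3% of all genes. In the nigra 0 of 14 passed in limma (1 at an unadjusted p under 0.05, median 0.00059). In the average of both lesioned levodopa groups against vehicle, 3 of 14 were higher in striatum in limma, where 164 of 12436 genes passed (1.32%), 139 of them as higher (1.12%). They were Shh (0.88 ± 0.075), Ier5 (0.56 ± 0.10) and Itga7 (0.47 ± 0.11), the last of which was lost in 12 of 19 settings. The average holds the dyskinetic arrays, so a rise in those arrays alone can raise it.

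The genes around Hsd11b1 did not pass with it. Of 12 tested genes for glucocorticoid activation and receptors 0 passed in limma in either tissue for dyskinetic against non-dyskinetic rats. At an unadjusted p under 0.05 in limma there were 4 in striatum and 0 in nigra, and 21.3% and 14.6% of all genes tested. The list medians were -0.075 in striatum and -0.0082 in nigra. Hsd11b2, the enzyme that inactivates corticosterone, stood at 0.23 ± 0.11 in striatum (adjusted p = 0.22, limma) and 0.086 ± 0.080 in nigra. H6pd stood at -0.19 ± 0.066 in striatum (adjusted p = 0.12, limma) and at -0.16 ± 0.078 in nigra. The glucocorticoid receptor Nr3c1 stood at -0.10 ± 0.074 and -0.027 ± 0.092, and the mineralocorticoid receptor Nr3c2 at -0.10 ± 0.068 and -0.064 ± 0.076.

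Of 19 tested glucocorticoid-responsive genes 6 were higher in dyskinetic striatum, where 3.06% of all genes were, none was lower, and the median was 0.24. These were the cell-cycle inhibitor Cdkn1a (2.78 ± 0.21), the MAP kinase phosphatase Dusp1 (1.17 ± 0.22), Tiparp (0.98 ± 0.23), the growth factor receptor inhibitor Errfi1 (0.58 ± 0.12), the NF-kappa-B inhibitor Nfkbia (0.57 ± 0.15) and Klf9, with limma's adjusted p from 7.5e-06 to 0.047. Several of these, such as Dusp1 and Cdkn1a, are known to be induced by many other signals, among them neuronal activity and stress. Fkbp5, a classic target of the glucocorticoid receptor, stood at 0.075 ± 0.11 (adjusted p = 0.75, limma), Tsc22d3 at 0.044 ± 0.091 and Sgk1 at 0.17 ± 0.11. The count of 6 ran from 2 to 7 over 20 alternative settings. With dyskinetic array 2 left out, limma's adjusted p rose to 0.20 for Klf9, 0.18 for Nfkbia and 0.068 for Errfi1. The call of Tiparp was lost in 7 of 20 settings, with an adjusted p of 0.092 without non-dyskinetic array 2, and that of Nfkbia in 6. In the nigra 0 of the 19 passed in limma (6 at an unadjusted p under 0.05), with a median of 0.22 and 15 of 19 differences above 0. In the levodopa average against vehicle, Cdkn1a (1.43 ± 0.19), Tiparp (0.96 ± 0.20) and Per1, a clock gene (0.55 ± 0.12), were higher in striatum, with the calls of Tiparp and Per1 lost in 9 and 8 of 20 settings. This average holds the dyskinetic arrays, so a rise in those arrays alone can raise it. In the nigra 0 genes of any of the 8 lists passed, where 0.346% of all genes did.

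In vehicle against intact nigra Nr3c1 was higher (0.35 ± 0.092, adjusted p = 0.028, limma), 1 of 12 genes of its list, where 5.52% of all genes passed as higher. This call was lost without vehicle array 3. Mt1, a metallothionein that glucocorticoids induce, was higher too (1.14 ± 0.16, adjusted p = 5.2e-04), 1 of 19. Of 14 thyroid hormone responsive genes the synaptic protein gene Nrgn (-0.46 ± 0.12) and Stard4, for cholesterol transport (-0.43 ± 0.089), were lower, where 7.26% of all genes were. The calls of Mt1 and Stard4 were lost in 0 settings and that of Nrgn in 3 of 20. In the striatum 0 genes of the 8 lists passed in this comparison in limma, with 0 to 4 per list at an unadjusted p under 0.05, as had 7.78% of all genes.

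The other tubulins did not pass beside Tubb6 and Tubb2b, with 0 of 14 in each tissue for dyskinetic against non-dyskinetic rats in limma. At an unadjusted p under 0.05 in limma there were 7 in striatum and 2 in nigra, and 21.3% and 14.6% of all genes tested. The list medians were 0.090 in striatum and -0.0071 in nigra, beside -0.031 and -0.018 over all genes tested. Of the 14 differences 8 in striatum and 6 in nigra lay above 0. In striatum the neuronal beta-tubulin Tubb3 stood at 0.17 ± 0.069 (adjusted p = 0.16, limma) and Tubb5 at 0.19 ± 0.073 (adjusted p = 0.15), and in nigra they stood at -0.0099 ± 0.077 and 0.069 ± 0.059. Of 35 tested genes for tubulin folding and microtubule regulation, the tubulin cofactor Tbcc was higher (0.39 ± 0.10, adjusted p = 0.044) and the kinesin subunit Kif3a lower (-0.34 ± 0.094, adjusted p = 0.049, limma) in dyskinetic striatum. Those calls were lost in 12 and 15 of 20 settings, and 0 of 36 passed in the nigra, with 4 at an unadjusted p under 0.05. Of all genes tested in dyskinetic striatum, 3.06% passed as higher and 2.2% as lower, so 1 of 35 each way is near that share.

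In the nigra of lesioned vehicle against intact rats 4 of 14 tubulins were lower and none higher, beside Tubb2b, where 7.26% of all genes were lower. They were Tubb3 (-0.44 ± 0.077), Tubb4b (-0.37 ± 0.068), Tubb2a (-0.28 ± 0.073) and the gamma-tubulin Tubg1 (-0.23 ± 0.064), with limma's adjusted p from 0.0030 to 0.038 and a list median of -0.17. The call of Tubb2a was lost in 5 of 20 settings (adjusted p = 0.40 with the median over probe sets, limma) and that of Tubg1 in 8. Of 36 microtubule regulators 6 were lower and none higher, led by Stmn2, a neuronal regulator of microtubule growth (-0.44 ± 0.065), and Kif3a (-0.34 ± 0.077). Without nigral vehicle array 3 the counts were 2 of 14 tubulins and 4 regulators, and without array 1 they were 4 and 5. All 10 markers of nigral dopamine neurons were lower in the same comparison (median -2.14), and their part in the tubulin values was not tested.

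Of the relatives and partners of Pvr, 0 of 11 tested passed in limma between dyskinetic and non-dyskinetic rats in either tissue (2 in striatum and 3 in nigra at an unadjusted p under 0.05), and its relative Nectin2 stood at 0.016 ± 0.080 in striatum and -0.14 ± 0.083 in nigra. In vehicle against intact nigra 1 of the 11 was lower and 1 higher, where 7.26% and 5.52% of all genes were. These were the adhesion protein Cadm3, lower (-0.77 ± 0.085), and the integrin subunit Itgav, higher (0.40 ± 0.10), with limma's adjusted p of 9.8e-05 and 0.023. The call of Cadm3 was lost in 0 of 20 settings, and that of Itgav was lost without nigral vehicle array 1 and without array 3. Around Cflar, 2 of 17 tested death receptor genes passed in dyskinetic striatum, where 3.06% of all genes were higher and 2.2% lower. The cytokine Tnf was higher (0.92 ± 0.10, adjusted p = 1e-04) and the death ligand Tnfsf10 lower (-0.80 ± 0.14, adjusted p = 0.0038, limma). Casp8 stood at -0.056 ± 0.079 and Fadd at -0.27 ± 0.11 (adjusted p = 0.17) there, and 0 of 19 passed in dyskinetic nigra, with 3 at an unadjusted p under 0.05 in limma. In vehicle against intact nigra Tnfrsf1a (0.42 ± 0.11) and Rela (0.28 ± 0.068) were higher, 2 of 19 tested, where 5.52% of all genes were higher. The count was 2 without vehicle array 1 and 0 without vehicle array 3.

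**Figure D4:**
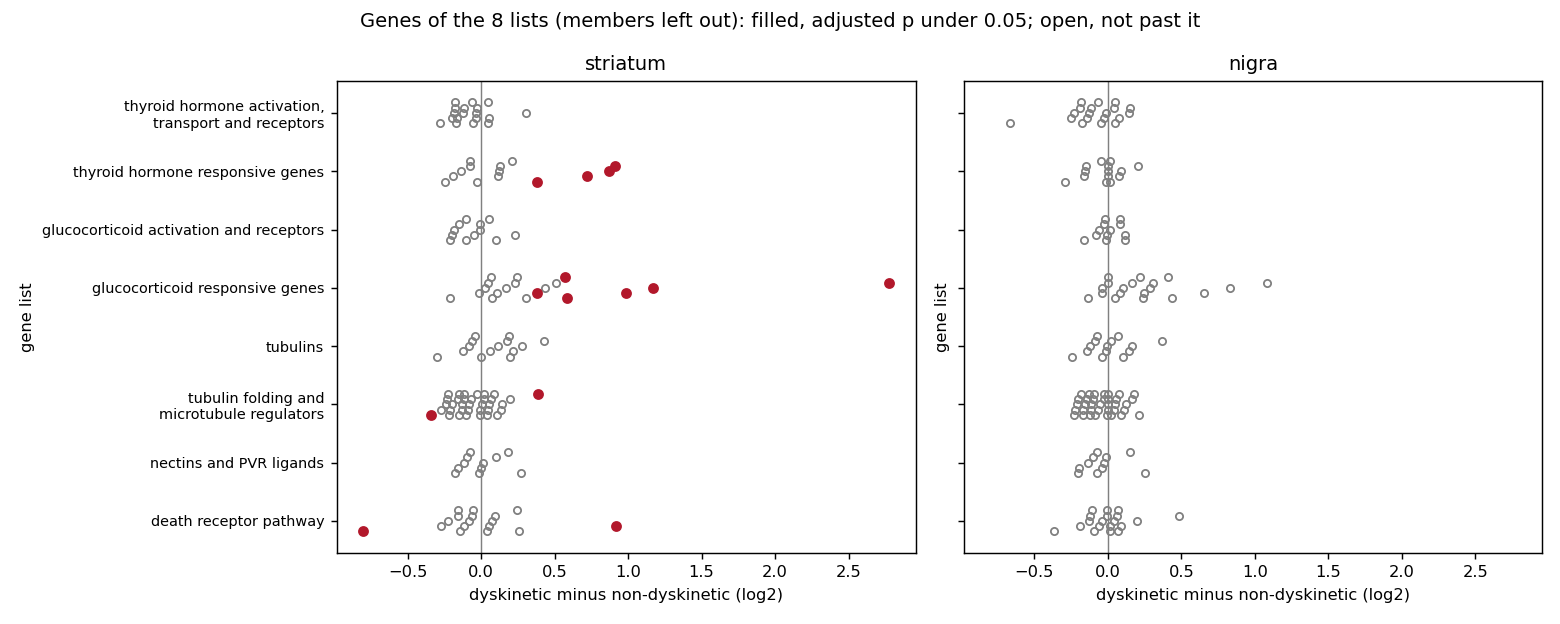
Dyskinetic minus non-dyskinetic log2 difference of each tested gene of 8 lists, the 6 members left out, in striatum and nigra; filled points passed at an adjusted p under 0.05. In the striatum filled points lie mainly among thyroid hormone responsive (4 of 14) and glucocorticoid responsive genes (6 of 19), and in the nigra no gene of the 8 lists passed. Klf9 is counted in both lists, and 3.06% of all genes tested were higher in dyskinetic striatum.

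Markers of the cell types that could carry these transcripts were read beside them. Of 12 astrocyte markers 0 passed in limma between dyskinetic and non-dyskinetic rats in either tissue, with 0 in striatum and 3 in nigra at an unadjusted p under 0.05. Their mean level was 10.92 to 10.99 against 10.85 to 10.95 in striatum and 11.64 to 11.73 against 11.55 to 11.76 in nigra, so the groups overlapped. Of 8 endothelial and pericyte markers 0 passed in either tissue. At an unadjusted p under 0.05 in limma there were 4 in striatum and 0 in nigra, and 21.3% and 14.6% of all genes tested. Their medians were -0.14 in striatum and -0.019 in nigra, with 1 and 3 of 8 differences above 0. Of 11 tested markers of reactive astrocytes, 2 were higher in dyskinetic striatum, the protease inhibitor Timp1 (2.80 ± 0.41) and the small heat shock protein Hspb1 (0.76 ± 0.21), at adjusted p of 8.6e-04 and 0.047 in limma, and the call of Hspb1 was lost in 14 of 20 settings. The mean over 13 was 7.74 to 8.05 in dyskinetic, 7.25 to 7.66 in non-dyskinetic and 7.61 to 7.96 in vehicle striatum. Tanycyte and ependymal markers read 6.45 to 6.70 over 4 markers on all 24 arrays. Of the other lists, dyskinetic striatum had 1 of 3 choroid plexus markers higher (Kl) and 1 of 8 dopamine neuron markers (Th, 6.84 to 7.77 against 6.02 to 6.30 in non-dyskinetic rats). On the list for midbrain GABA neurons 2 of 8 were higher. These were Gad1 and Slc32a1, which GABA neurons in general express, and the others of that list did not pass. Beside these marker counts, 3.06% of all genes tested were higher in dyskinetic striatum. No marker of microglia, oligodendrocytes, meninges, striatal projection neurons or cortical neurons passed in either tissue. The part of these cells in the levels of the 6 genes was not tested.

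Of 10 dopamine neuron markers 1 passed between dyskinetic and non-dyskinetic nigra, where 0.241% of all genes did. Ret, a receptor for glial-derived neurotrophic factors, was lower in dyskinetic rats (-0.62 ± 0.089, adjusted p = 0.010, limma), a call lost in 3 of 20 settings (adjusted p = 0.070 without non-dyskinetic array 2). The list median was -0.47, with 2 of 10 differences above 0, and the array means overlapped. The mean level of the 10 was 8.89, 8.95 and 9.58 in dyskinetic, 9.72, 9.66 and 9.48 in non-dyskinetic, 8.96, 8.90 and 8.64 in vehicle and 10.76, 11.02 and 10.79 in intact nigra. Vehicle nigra had the lowest mean of these markers, with all its arrays below the dyskinetic ones for all 6 genes. Dyskinetic array 3, whose marker level lay within the non-dyskinetic range, had 7.90 for Dio2, 8.70 for Pvr, 8.55 for Tubb6 and 11.74 for Tubb2b, the highest value of each, 9.08 for Hsd11b1, between the other dyskinetic arrays, and 8.61 for Cflar, the lowest of the 3. The part of these neurons in the nigral values was not tested.

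**Figure D5:**
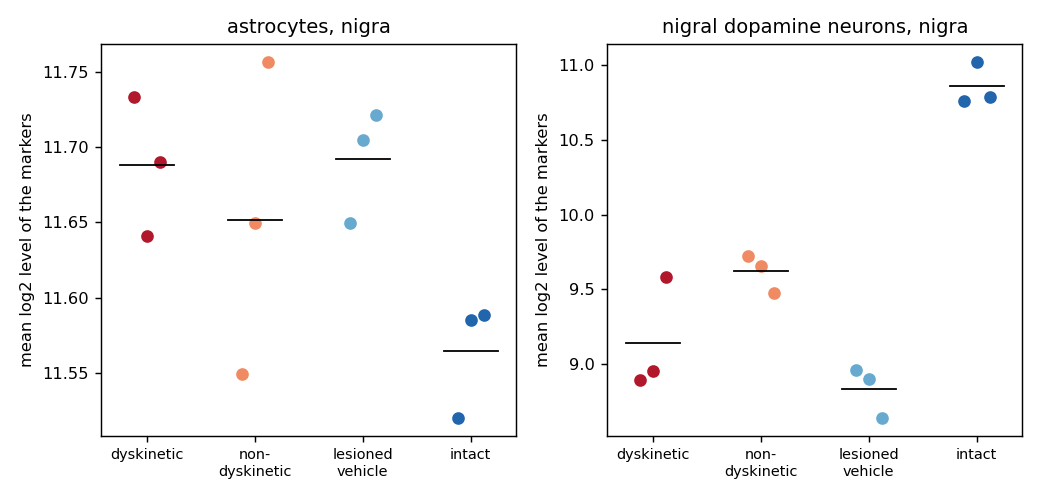
Mean log2 level of 12 astrocyte markers (left) and 10 dopamine neuron markers (right) on each nigral array (points), with group means (lines); the vertical ranges differ. Astrocyte markers overlap between dyskinetic and non-dyskinetic arrays, and dopamine neuron markers run from 8.89 to 9.58 in dyskinetic and from 9.48 to 9.72 in non-dyskinetic arrays.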

How the data were processed

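Gene expression was measured on Affymetrix exon arrays in 24 punches, 12 per tissue. Per the submitters' processing notes, the authors made the deposited log2 values with RMA in oligo 1.34 under R 3.2.3; replicates were not pooled. From there, probe sets naming 1 gene (172924) were averaged per gene, with symbols updated through the RefSeq table of GRCr8, and the lowest 25% of genes by mean level in a tissue (below 6.21 in striatum and 6.44 in nigra) were left out. All 6 genes passed in both tissues. limma 3.58.1 (R 4.3.3) fitted 1 mean per group over the 12 arrays of a tissue, with p adjusted by Benjamini and Hochberg over 12436 genes at 0.05. The tissue difference used all 24 arrays with the rat as a random block. Standard errors assume the same spread in every group, and the number of arrays limits the precision. The array's brightness differs by probe set, so levels of different genes were not compared.

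The 6 genes, the gene lists and the cell type markers were chosen with earlier results of these data known. Of each list, up to 6 genes past the threshold were named by size, with set relatives, and each member's 5 most correlated genes. Others, such as Tsc22d3 and Sgk1, and the Cflar probe sets were named after their values were seen. Of the listed genes 26 had no value and were not analysed here. On simulated data, 66% to 89% of changes of 0.5 and 97% to 100% of changes of 1 were recovered over the 7 comparisons. These data held 200 changes of set size in normal noise, so they do not show how many changes were missed on the real arrays. Alternatives were the median over probe sets, other filters, the compared groups alone, trended variances, array weights, median centring, a replicate block and each array left out. List counts and the members' values against vehicle rats were also taken without nigral vehicle array 1 or 3, which were chosen after seeing the data. Motifs were searched with Python 3.11.15.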

Additional observations from a re-analysis of the deposited data

How the results depend on the processing

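The dyskinetic minus non-dyskinetic values of the 6 genes kept their sign under all alternatives run, and the counts over all genes moved. The genes were chosen for that sign, so keeping it adds no evidence. With the median over probe sets the counts were 352 and 16 for dyskinetic against non-dyskinetic rats in striatum and nigra, 35 and 941 for vehicle against intact, 107 and 12 for levodopa against vehicle, and 418 for the tissue difference. With array weights they were 104 for dyskinetic against non-dyskinetic nigra, 191 and 3725 for vehicle against intact, and 294 and 2194 for levodopa against vehicle. With only the compared groups fitted they were 388 in dyskinetic striatum, 973 in vehicle against intact nigra and 15 in levodopa against vehicle nigra, where fewer arrays set the spread. With the lowest 50% of genes left out, which removed Dio2 and Tubb6 in both tissues and Pvr in nigra, the dyskinetic nigral count was 17.

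Leaving out 1 array gave 293 to 945 calls for dyskinetic striatum (293 without dyskinetic array 2, 387 and 392 without non-dyskinetic arrays 2 and 3) and 0 to 50 for dyskinetic nigra (0 without dyskinetic array 1, 16 and 12 without dyskinetic arrays 2 and 3, 9 and 11 without non-dyskinetic arrays 1 and 2, 18 without intact array 3, 50 without vehicle array 3). It gave 25 to 68 and 631 to 1739 for vehicle against intact in striatum and nigra (631 without nigral intact array 2 and 1049 without nigral vehicle array 1), 53 to 244 and 13 to 247 for levodopa against vehicle, and 434 to 786 for the tissue difference (434 without nigral intact array 2).

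Some uncalled values of vehicle against intact changed sign. Cflar in striatum was -0.025 with the median over probe sets, Tubb6 in nigra was -0.055 with array weights, and Pvr with 1 array left out ran from -0.12 to 0.030 in striatum and from -0.17 to 0.019 in nigra. In the tissue difference Pvr was -0.054 and Cflar -0.18 with the median over probe sets. With 1 array left out Pvr ran from -0.062 to 0.12, Dio2 from -0.23 to 0.020 and Tubb6 from -0.22 to 0.045. The causes were not tested.

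Of array pairs with the same replicate number, 6 of 18 in striatum and 5 of 18 in nigra correlated above 0.1. No pairs of different number are set beside them, so these counts do not show whether replicate numbers paired the arrays. With the replicate number as a block the counts were 694 and 30 for dyskinetic against non-dyskinetic striatum and nigra, 78 and 1524 for vehicle against intact, 188 and 41 for levodopa against vehicle and 679 for the tissue difference, and no call of the 6 genes in vehicle against intact changed.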
